A study of Mus musculus with 6 samples.

Results

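The genes described here encode AMP-activated protein kinase (AMPK), the kinase LKB1 that switches it on, and an antisense RNA inside 1 of the AMPK genes, measured in livers of mice fed a high-fat diet (HFD) with or without allantoin. They are Prkaa1 and Prkaa2 (catalytic α subunits), Prkab1 and Prkab2 (scaffold β subunits), Prkag1 and Prkag2 (nucleotide-binding γ subunits), Stk11 (LKB1) and Prkag2os1, a noncoding gene on the strand opposite to Prkag2. These 8 genes were taken from the 54532 Ensembl genes of the deposited count table by their GENCODE M21 symbols. They were selected on function and on their measured difference between HFD+Allantoin-H and HFD, which was already known. Their differences between the groups, and whether they were called, are therefore given as descriptions and not as evidence.

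Liver RNA was sequenced from 3 libraries labelled HFD (replicates 1 to 3) and 3 labelled HFD with allantoin (replicates 4 to 6, HFD+Allantoin-H). All came from wild-type male C57BL/6J mice, 8 weeks old at entry, that ate the HFD for 4 weeks and then for 4 further weeks, during which the second group also drank allantoin, the oxidation product of uric acid. The labels list 0.06 and 0.3 mg/mL in the drinking water without tying a library to either, and the methods of the study give 0.3 mg/mL as Allantoin-H. No library from chow-fed mice was analysed here, so that every group shares the diet, and no batch or date is given, so that batch and group cannot be told apart. The comparison asks how liver transcripts on the HFD differ with added allantoin.

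AMPK is the energy sensor of the cell. Binding of AMP or ADP to the γ subunit and phosphorylation of the α subunit by LKB1 activate the complex, which then turns off fatty acid and cholesterol synthesis and turns on fatty acid oxidation, autophagy and mitochondrial renewal. In hepatocytes both α subunits are made, and acetyl-CoA carboxylase is the classical substrate. Transcript levels say nothing of AMPK phosphorylation or activity.

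Prkag2os1 lies within the span of Prkag2, and the windows before their starts are shown because the antisense RNA and the different Prkag2 transcripts begin at separate places. Prkag2 spans chromosome 5, 24862744 to 25100642 (GRCm38, minus strand, 237899 bases), with 10 annotated transcripts. Prkag2os1 is at 24902569 to 24906850 on the plus strand, with 7 exons and 991 exon bases, of which 142 are also exon bases of Prkag2, in a noncoding processed transcript. The antisense RNA starts 254 bases from the start of 1 coding transcript of Prkag2, the pair pointing away from each other. The other coding starts of Prkag2 lie 5900, 5940, 6408, 93184 and 198073 bases beyond the antisense start. The sequences below are the 250 bases before RefSeq starts (GRCm38.p6), which for Prkag2 are those 5940, 93184 and 198073 bases away, 5′ to 3′ on the strand of the gene, with matches to the searched motifs in capitals. Those of Prkaa2 and Stk11 follow, as the catalytic subunit with the largest difference between the groups and as the upstream kinase.
Prkag2os1 (chr5:24902319-24902568, plus strand): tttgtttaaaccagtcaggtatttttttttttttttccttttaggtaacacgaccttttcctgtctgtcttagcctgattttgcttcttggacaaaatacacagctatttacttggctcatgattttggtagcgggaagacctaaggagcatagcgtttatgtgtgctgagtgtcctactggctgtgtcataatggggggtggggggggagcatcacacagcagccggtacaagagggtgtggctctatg
Prkag2, first of its 3 RefSeq windows by position (chr5:24908510-24908759, minus strand): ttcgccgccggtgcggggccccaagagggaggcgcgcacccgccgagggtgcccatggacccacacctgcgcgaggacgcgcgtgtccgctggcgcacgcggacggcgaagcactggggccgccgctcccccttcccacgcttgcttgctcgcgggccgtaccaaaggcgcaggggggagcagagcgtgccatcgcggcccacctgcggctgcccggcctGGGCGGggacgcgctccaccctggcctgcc
Prkag2, second window (chr5:24995754-24996003, minus strand): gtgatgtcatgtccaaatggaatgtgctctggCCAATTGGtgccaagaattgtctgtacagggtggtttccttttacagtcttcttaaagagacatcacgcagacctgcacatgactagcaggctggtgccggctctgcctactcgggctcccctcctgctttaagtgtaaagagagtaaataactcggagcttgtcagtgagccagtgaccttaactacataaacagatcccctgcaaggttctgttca
Prkag2, last window (chr5:25100643-25100892, minus strand): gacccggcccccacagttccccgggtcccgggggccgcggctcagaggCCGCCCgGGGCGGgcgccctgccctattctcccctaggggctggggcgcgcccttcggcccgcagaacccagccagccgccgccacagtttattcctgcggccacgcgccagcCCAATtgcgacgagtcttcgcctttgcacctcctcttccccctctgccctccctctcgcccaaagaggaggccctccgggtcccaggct
Prkaa2 (chr4:105109899-105110148, minus strand): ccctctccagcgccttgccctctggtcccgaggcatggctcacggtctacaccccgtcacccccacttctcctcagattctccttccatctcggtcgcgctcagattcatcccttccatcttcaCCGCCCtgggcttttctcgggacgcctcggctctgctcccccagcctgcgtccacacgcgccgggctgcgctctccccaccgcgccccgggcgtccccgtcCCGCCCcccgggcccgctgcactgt
Stk11 (chr10:80115545-80115794, plus strand): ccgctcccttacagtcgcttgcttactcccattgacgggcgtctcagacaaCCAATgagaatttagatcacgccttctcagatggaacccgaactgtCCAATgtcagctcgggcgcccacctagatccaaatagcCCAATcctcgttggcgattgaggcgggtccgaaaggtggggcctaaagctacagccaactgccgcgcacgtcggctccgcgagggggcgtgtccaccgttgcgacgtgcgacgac

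The windows differed in composition. All 8 genes had an entry in the RefSeq table, with 10 windows in all. The first and the last Prkag2 window had a GC content of 77.2% and 73.2%, with 34 and 23 CpG dinucleotides, whereas the second had 48.4% and 4. The Prkag2os1 window had 44.8% and 4, below the median over all 32851 windows of this length, which was 52.4% GC and 6 CpG. Prkaa2 had 70.0% GC and 24 CpG, and Stk11 59.6% and 24. The motifs searched on both strands were TATAAA (in 12.4% of all windows), CCAAT (33.8%), GGGCGG (the GC box, 32.7%), CACGTG (6.02%), TGACGTCA (1.55%) and a direct repeat of AGGTCA with 1 base between the copies (0.0335%). The Prkag2os1 window held none of them. Prkaa2 held 2 GC boxes, Stk11 held 3 CCAAT matches, the first Prkag2 window held 1 GC box, and the last held 2 GC boxes and 1 CCAAT match. The second Prkag2 window held 2 CCAAT matches, which overlap on opposite strands. A match is a run of letters and not a shown binding site.

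**Figure D1:**
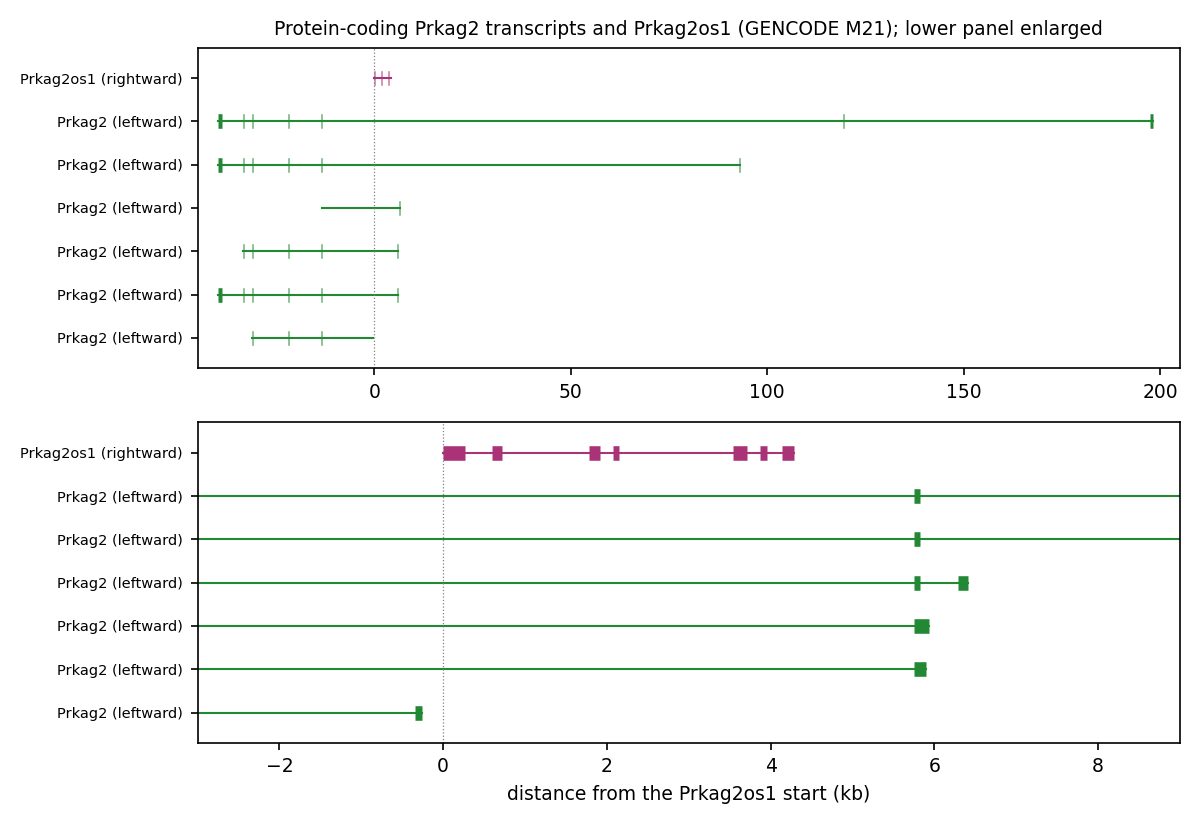
Map of the protein-coding Prkag2 transcripts (green, read leftward) and Prkag2os1 (purple, read rightward), by distance in kb from the Prkag2os1 start. Thick blocks are exons and lines are introns. The upper panel shows the whole gene and the lower panel the stretch around Prkag2os1, which sits between the start of 1 coding transcript, 254 bases away, and the cluster of starts from 5900 to 6408 bases away.

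The 6 libraries held 11326372 to 14601457 counts. The 10 most abundant genes took 27.0 to 43.0% of the counts in HFD and 18.5 to 23.4% in HFD+Allantoin-H, and the mitochondrial chromosome took 17.9 to 36.5% and 6.92 to 11.4%. HFD replicate 2 stood apart by white fat genes, with 520 counts of Adipoq, 498 of Plin1 and 115 of Lep, each at 0 or 1 in every other library. Fabp4 had 2593 counts in that library and 34 to 146 in the others. The 8 fat cell markers summed to 3216 to 4229 CPM (counts scaled to a common library size) in HFD and 2526 to 3831 CPM in HFD+Allantoin-H, and none of the 4 tested was called. Car3 made up most of this sum in every library, and the sum was not highest in HFD replicate 2. Hepatocyte markers summed to 88856 to 90000 CPM in HFD and 73773 to 102934 in HFD+Allantoin-H, with 2 of 8 called higher and 2 lower. Markers of macrophages summed to 110 to 262 and 305 to 343 CPM, with 3 of 8 called higher, and those of stellate cells to 192 to 315 and 420 to 483 CPM, with 5 of 8 called higher. Those of endothelial cells (8 genes, 73.7 to 141 against 122 to 188 CPM) held no call. Neither did those of lymphocytes (3 of 6 genes tested), red cells (5 of 6 tested) and pancreatic acinar cells (2 of 6 tested). Of the 6 bile duct markers (34.5 to 159 against 21.9 to 76.8 CPM), 3 were tested and 1, Sox9, was called lower. Genes that were not tested could not be called. Of 8 skeletal muscle markers Myh4, Myh1, Ckm and Tnnt3 were at 0 in every library. In bulk tissue, a different number of cells of a type and a different amount of RNA per cell cannot be told apart. The part of these differences in the results below was not tested.

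Levels below are CPM scaled by edgeR's trimmed mean of M values (TMM) from the raw counts, and differences are log2 fold changes of HFD+Allantoin-H over HFD with their standard error (SE). Genes are called at an adjusted p under 0.05 (edgeR's quasi-likelihood test, 2-sided, Benjamini-Hochberg over all 12795 genes tested). All 8 genes passed the filter on low counts. Prkaa2 was called higher and Prkag1, Prkag2os1 and Stk11 lower, that is 1 and 3 of 8, where 11.3% of all tested genes were called higher and 13.0% lower. In 7 of the 8 genes the values of the groups did not overlap, 2 higher and 5 lower, against 44.3% of all tested genes (22.4% higher and 21.9% lower). The median log2 fold change of the 8 genes was -0.52 and that of all tested genes -0.03. Nothing is read from these counts, since the same difference chose the genes.

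**Figure D2:**
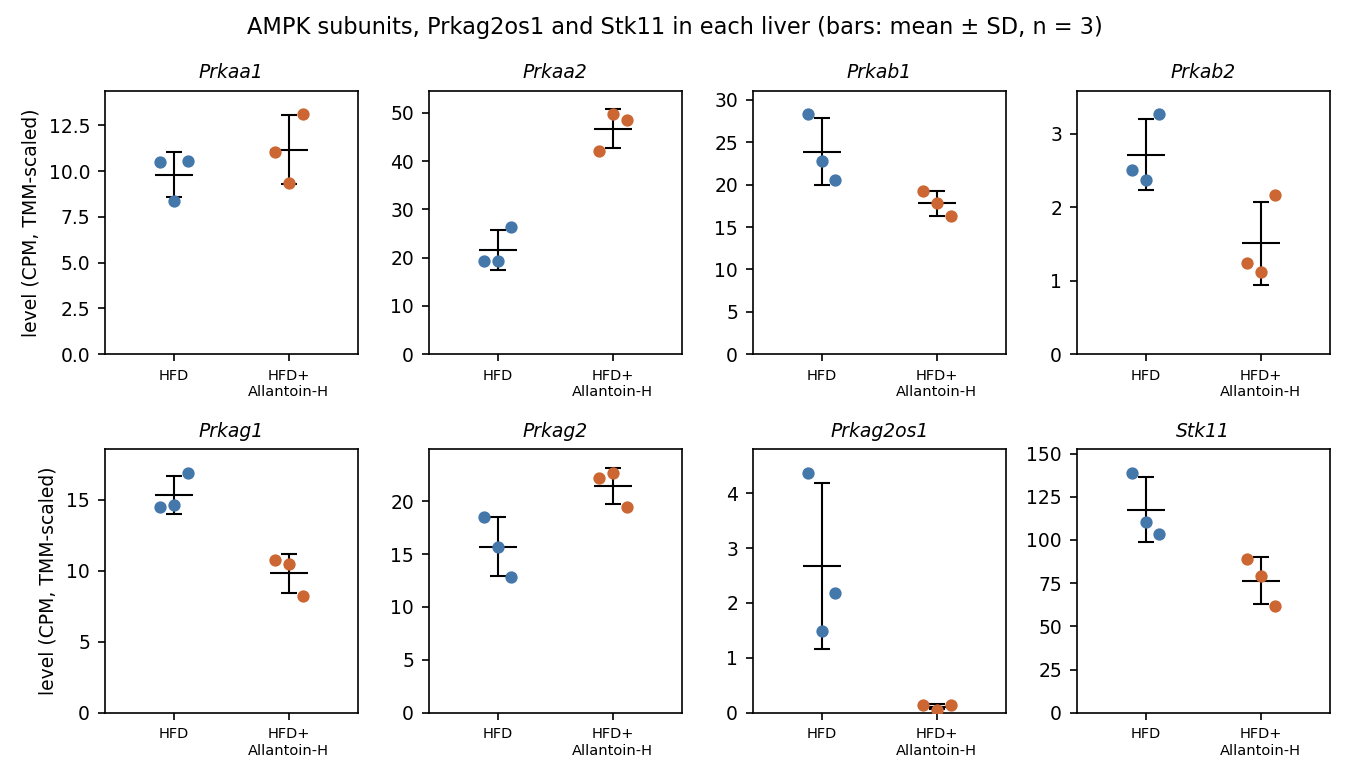
Level of each gene in each liver library, in TMM-scaled CPM on linear axes that start at 0, for HFD (blue, replicates 1 to 3 from left to right) and HFD+Allantoin-H (orange, replicates 4 to 6), with the mean and SD of 3 libraries as bars. Every HFD+Allantoin-H library lies above every HFD library for Prkaa2 and Prkag2 and below for Prkab1, Prkab2, Prkag1, Prkag2os1 and Stk11, while the Prkaa1 groups overlap.

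The catalytic subunits differed from each other. Prkaa2 (ENSMUSG00000028518, chromosome 4, 105029874 to 105109890, minus strand), the α2 subunit, had 19.2, 19.3 and 26.3 CPM in HFD and 42.0, 49.6 and 48.5 CPM in HFD+Allantoin-H. The lowest treated library was thus well above the highest HFD library. The means were 21.6 ± 4.10 and 46.7 ± 4.12 CPM (SD, n = 3 each), a log2 fold change of 1.11 (SE 0.18), or 2.16-fold. Prkaa1 (ENSMUSG00000050697, chromosome 15, 5143861 to 5181899, plus strand), the α1 subunit, had 10.5, 8.39 and 10.5 CPM in HFD and 11.1, 9.35 and 13.1 CPM in HFD+Allantoin-H. Its groups overlapped, the means were 9.80 ± 1.22 and 11.2 ± 1.88 CPM, and the log2 fold change was 0.19 (SE 0.22). Prkaa2 was called under every alternative run, with log2 fold changes between 0.88 and 1.51, and without HFD replicate 2 it was 1.03. These runs reuse the difference that chose the gene, so they describe only how it depends on the processing.

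Levels of the α subunits can be compared per kb of exon. Prkaa2 exceeded Prkaa1 in 6 of 6 libraries, by 0.83 ± 0.57 on the log2 scale (SD over 6 libraries), or 1.77-fold (2-sided exact sign-flip permutation test, p = 0.03125, the smallest this design allows, adjusted p = 0.03125 over 3 pairs). Per kb of coding sequence the difference was larger, 1.62 on the log2 scale. This test concerns the level difference within livers, but it pools both groups and so takes in the treated libraries, whose difference chose the genes. The log2 difference was 0.36 ± 0.23 in HFD and 1.30 ± 0.29 in HFD+Allantoin-H. The p-value is thus not free of the selection, and the same holds for the β and γ pairs below. The share of Prkaa2 in the sum of the pair was 51.7, 57.3 and 59.4% in HFD and 68.9, 75.6 and 68.4% in HFD+Allantoin-H. The means were 56.1 ± 3.95% and 71.0 ± 4.03%, so that Prkaa2 went from 1.28 times to 2.46 times the level of Prkaa1. These shares come from within a library and do not depend on how libraries were scaled against each other, though they do depend on the length used.

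The β subunits, which hold the complex together and bind glycogen, lay lower in HFD+Allantoin-H. Prkab1 (ENSMUSG00000029513, chromosome 5, 116013586 to 116024508, minus strand) had 28.3, 22.8 and 20.6 CPM in HFD and 19.2, 17.8 and 16.3 CPM in HFD+Allantoin-H. The groups did not overlap, but HFD replicate 3 and HFD+Allantoin-H replicate 4 were close. The means were 23.9 ± 3.96 and 17.8 ± 1.44 CPM, with a log2 fold change of -0.42 (SE 0.18) that was not called. Scaled by library size alone, its log2 fold change was 0.01, of the opposite sign. Gm14508, annotated antisense to Prkab1, had 11, 9 and 8 counts in HFD and 4, 1 and 2 in HFD+Allantoin-H and was too low to be tested.

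Prkab2 (ENSMUSG00000038205, chromosome 3, 97658193 to 97673812, plus strand) was the scarcest subunit in both groups. It had 23, 24 and 39 counts in HFD and 17, 19 and 32 in HFD+Allantoin-H, or 2.51, 2.37 and 3.26 against 1.25, 1.12 and 2.16 CPM. The groups did not overlap in CPM, while their raw counts did. The means were 2.71 ± 0.479 and 1.51 ± 0.566 CPM, with a log2 fold change of -0.85 (SE 0.41), not called at this depth. Per kb of exon, Prkab1 exceeded Prkab2 in 6 of 6 libraries, by 4.11 ± 0.54 on the log2 scale or 17.3-fold (exact sign-flip permutation test, p = 0.03125, adjusted p = 0.03125). The size depends on the length used, with 3.38 on the log2 scale per kb of coding sequence and 4.64 per kb of the longest transcript. Prkab1 made up 93.4 ± 1.91% of the pair in HFD and 95.1 ± 2.11% in HFD+Allantoin-H, a difference smaller than the SD of either group.

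The γ subunits, which carry the nucleotide-binding sites, differed in opposite directions between the groups. Prkag1 (ENSMUSG00000067713, chromosome 15, 98812797 to 98831521, minus strand) had 14.5, 14.6 and 16.9 CPM in HFD and 10.8, 10.5 and 8.23 CPM in HFD+Allantoin-H. No treated library reached the HFD range. The means were 15.3 ± 1.34 and 9.83 ± 1.39 CPM, a log2 fold change of -0.64 (SE 0.19). It was no longer called in 8 of 15 alternatives, which include scaling by library size alone (-0.23), leaving out HFD replicate 2 (-0.68) and leaving out any 1 treated library. B130046B21Rik, antisense to Prkag1, had at most 2 counts.

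Prkag2 (ENSMUSG00000028944) had 18.4, 15.7 and 12.9 CPM in HFD and 22.1, 22.7 and 19.4 CPM in HFD+Allantoin-H. HFD replicate 1 and HFD+Allantoin-H replicate 6 were close, and the groups did not overlap. The means were 15.7 ± 2.79 and 21.4 ± 1.73 CPM, with a log2 fold change of 0.45 (SE 0.19) that was not called, except with scaling by library size alone (0.89). Prkag1 exceeded Prkag2 per kb of exon in 6 of 6 libraries, by 1.0 ± 0.66 on the log2 scale or 2.0-fold (exact sign-flip permutation test, p = 0.03125, adjusted p = 0.03125). That order depends on the length used, since per kb of coding sequence the difference was 0.20 (exact test, adjusted p = 0.5) and per kb of the longest transcript 0.44 (exact test, adjusted p = 0.25). Per kb of exon the log2 difference was 1.56 ± 0.38 in HFD and 0.44 ± 0.10 in HFD+Allantoin-H, so that the pooled test takes in the difference that chose the genes.

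The share of Prkag1 in the γ pair was 70.1, 73.5 and 79.6% in HFD and 59.2, 57.9 and 55.8% in HFD+Allantoin-H. The groups did not overlap, with means of 74.4 ± 4.83% and 57.6 ± 1.72%, and Prkag1 went from 2.94 times to 1.36 times the level of Prkag2. These values are per kb of exon, and which gene was higher in HFD+Allantoin-H depends on the length used. Prkag1 and Prkag2 have 2175 and 6480 exon bases but 990 and 1698 coding bases. Prkag3, the γ3 subunit of skeletal muscle, had 4, 3 and 0 counts in HFD and 3, 0 and 0 in HFD+Allantoin-H and was not tested.

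**Figure D3:**
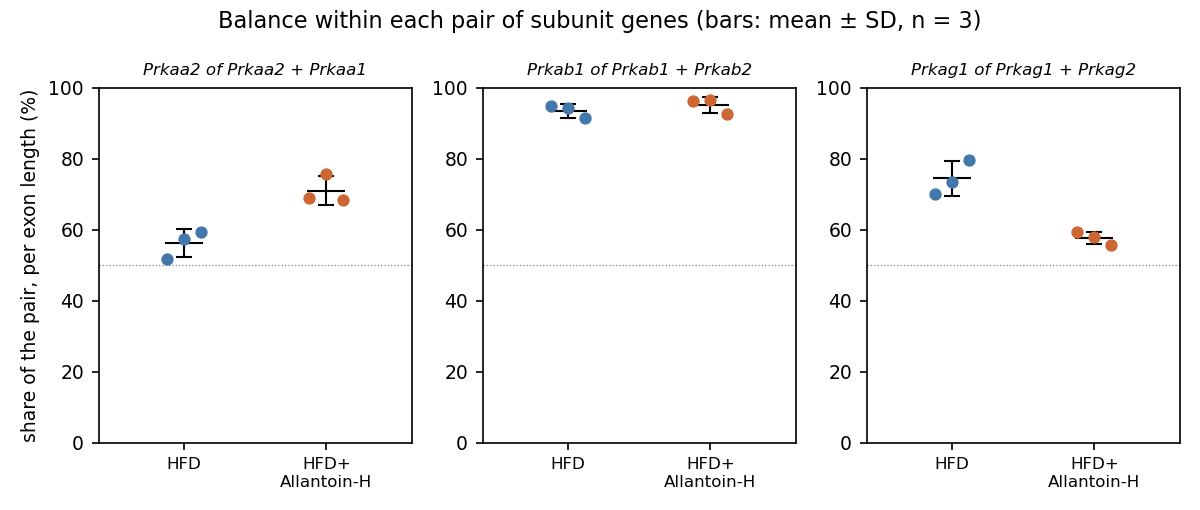
Share of 1 gene in the sum of its pair, in percent, from levels per kb of exon, for each library of HFD (blue) and HFD+Allantoin-H (orange), with the mean and SD of 3 libraries as bars and a dotted line where both genes are equal. The Prkaa2 share goes from 56.1 to 71.0% and the Prkag1 share from 74.4 to 57.6%, without overlap, while the Prkab1 shares overlap. The shares, and their place against the dotted line, depend on the length used.

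Prkag2os1 (ENSMUSG00000086446) had the largest difference of the 8 genes. It had 40, 15 and 26 counts in HFD and 2, 1 and 2 counts in HFD+Allantoin-H, or 4.37, 1.48 and 2.17 against 0.147, 0.0592 and 0.135 CPM. HFD replicate 1 was highest, and every HFD library was above every treated library. The summed 81 against 5 counts gave a scaled ratio of 23.5 of HFD over HFD+Allantoin-H (exact 95% interval 9.67 to 74.4, which covers counting error only and not the spread between libraries). The interval pools the reads of each group and describes the difference that chose the gene, so it is not evidence for that difference. The strand setting of the counting is not given in the sources used here. Without strand, reads of Prkag2os1 and of Prkag2 introns or of its processed transcript cannot be told apart. A second antisense gene, Prkag2os2, had 2, 2 and 1 counts in HFD and 3, 3 and 2 in HFD+Allantoin-H, and shares 535 identical bases with Prkag2.

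In HFD, Prkag2os1 and Prkag2 had 2.70 ± 1.52 and 2.42 ± 0.430 CPM per kb of exon, and their ranges overlapped. In HFD+Allantoin-H they were 0.115 ± 0.0479 and 3.30 ± 0.267 CPM per kb. The closeness in HFD depends on the length used. Prkag2 has 6480 exon bases but a longest transcript of 3331, while both lengths are 991 bases for Prkag2os1. Tested genes were also split into 10 equal groups by the length of their longest transcript, not by exon length. Prkag2os1 is in the shortest group (57 to 1182 bases), whose median log2 fold change was -0.59, while Prkaa2 is in the longest, with a median of 0.15. Prkag1 is in the next to shortest group (median -0.19), Prkab1 in the one after it (-0.08), Prkag2 and Stk11 in the sixth (0.02), and Prkaa1 and Prkab2 in the eighth (0.09). In a run chosen after seeing the data, each library's trend in length and GC content was removed. Prkaa2 and Prkag2os1 were called in that run, while Prkag1 and Stk11 had log2 fold changes of -0.53 and -0.47 and were not called. The run reuses the difference that chose the genes and is a description. The part of length in these differences was not tested.

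The genes whose levels over the 6 libraries were most like those of Prkag2os1 were Lgals4, Neat1 and Fam193b, with root mean square differences of centred log2 CPM of 0.324, 0.375 and 0.376 among 11224 candidates. That log2 CPM has about 2 counts added per library, which makes differences of scarce genes such as Prkag2os1 smaller. The log2 fold changes of Lgals4, Neat1 and Fam193b were -3.21, -2.90 and -2.82, against -4.47 for Prkag2os1. Lgals4, which encodes a galectin of the gut epithelium, had 56.4 ± 28.4 CPM in HFD and 6.06 ± 0.643 CPM in HFD+Allantoin-H. Neat1, the noncoding RNA of nuclear paraspeckles, had 424 ± 160 and 56.8 ± 7.07 CPM, and Fam193b had 120 ± 58.5 and 17.0 ± 3.14 CPM. For Prkag2 they were Pcdh1 (0.0442), Uri1 (0.0516) and Atp7b, the copper exporter of hepatocytes (0.0570). Their log2 fold changes were 0.36, 0.40 and 0.54, and none was called (edgeR, adjusted p = 0.170, 0.120 and 0.0723). Likeness over 6 libraries is a description, and these genes share the libraries and their depth with Prkag2os1 and Prkag2.

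Stk11 (ENSMUSG00000003068, chromosome 10, 80115803 to 80130682, plus strand), the main AMPK kinase of the liver, was the most abundant of the 8 genes in both groups. It had 139, 110 and 104 CPM in HFD and 88.8, 79.3 and 61.6 CPM in HFD+Allantoin-H. All HFD libraries were above all treated libraries. The means were 118 ± 18.6 and 76.5 ± 13.8 CPM, a log2 fold change of -0.62 (SE 0.20). It was no longer called in 8 of 15 alternatives, which include scaling by library size alone (-0.18) and leaving out HFD replicate 2 (-0.66), HFD replicate 1 (-0.49) or any 1 treated library. Its raw counts overlapped, with 1271, 1117 and 1240 in HFD and 1211, 1340 and 912 in HFD+Allantoin-H. The size of the difference and its call depend on the scaling, while its sign was negative under all 15 alternatives. Cbarp, on the opposite strand, overlaps Stk11 and had 9 to 28 counts per library.

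**Figure D4:**
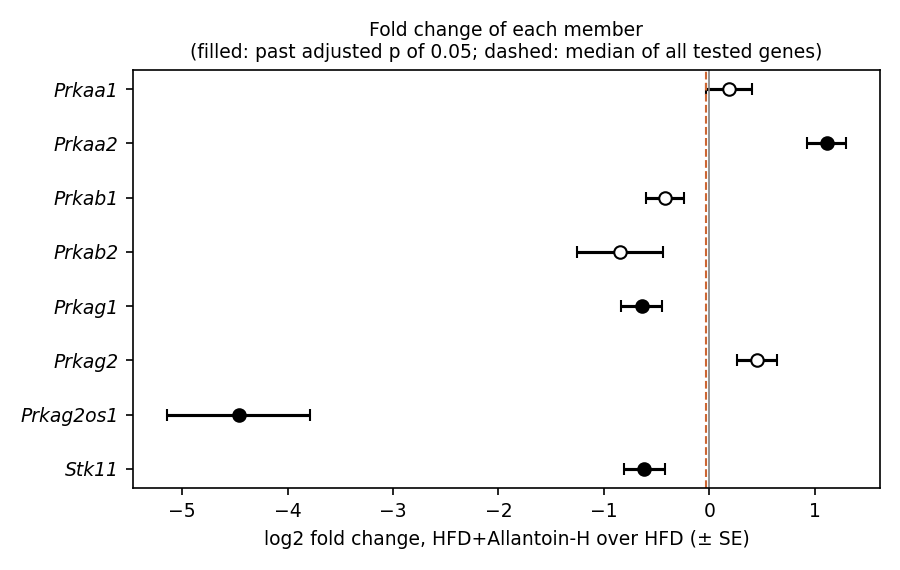
Log2 fold change of HFD+Allantoin-H over HFD for each gene, with its SE as bars, filled where the adjusted p was under 0.05 and open otherwise. The dashed line is the median of all tested genes, -0.03. Prkaa2 lies at 1.11 and Prkag2 at 0.45, while Prkag1 and Stk11 lie at -0.64 and -0.62, and the position of Prkag2os1 depends on the small number added to low counts.

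The order of the levels per kb of exon differed between the groups in the place of Prkaa2 and Prkag2os1. In HFD, Stk11 led with 25.7 ± 4.07 CPM per kb, followed by Prkab1 (7.79 ± 1.29), Prkag1 (7.05 ± 0.616), Prkaa2 (2.71 ± 0.514), Prkag2os1, Prkag2, Prkaa1 (2.11 ± 0.262) and Prkab2 (0.533 ± 0.0939). Prkab1 and Prkag1 overlapped, as did each neighbouring pair from Prkaa2 down to Prkaa1. In HFD+Allantoin-H, Stk11 had 16.7 ± 3.02 CPM per kb, followed by Prkaa2 (5.86 ± 0.517), Prkab1 (5.80 ± 0.469), Prkag1 (4.52 ± 0.638), Prkag2, Prkaa1 (2.40 ± 0.403), Prkab2 (0.296 ± 0.111) and Prkag2os1. There, the one neighbouring pair that overlapped was Prkaa2 and Prkab1. These orders, and the place of Prkaa2 in them, depend on the length used. The longest transcript of Prkag2 has 3331 bases against 6480 exon bases, while both lengths are 7969 bases for Prkaa2.

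Summed by class, the α subunits had 4.82 ± 0.687 CPM per kb of exon in HFD and 8.26 ± 0.627 in HFD+Allantoin-H. The β subunits had 8.32 ± 1.24 and 6.10 ± 0.384, and the γ subunits 9.47 ± 0.307 and 7.82 ± 0.898. On this scale the α sum was below the other sums in every HFD library, while in HFD+Allantoin-H the α (7.65 to 8.90) and γ (6.79 to 8.37) ranges overlapped. The order of the sums depends on the length used. Per kb of coding sequence the α sum was 18.9 and 34.9, the β sum 32.8 and 23.8 and the γ sum 24.7 and 22.5 CPM per kb, with the α mean lowest in HFD and highest in HFD+Allantoin-H. Per kb of the longest transcript the sums in HFD+Allantoin-H were 8.26 for α, 8.81 for β and 12.4 for γ, with the α mean lowest in both groups.

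The lists around AMPK cover its regulators and substrates, other LKB1-activated kinases, adenine nucleotide enzymes, Prkag3 and Prkag2os2. They held 106 genes, of which 95 were tested. Of these, 11 (11.6%) were called higher and 5 (5.26%) lower, beside 11.3% and 13.0% of all tested genes, with a median log2 fold change of 0.12 against -0.03. Scaling by library size alone moved the median of all genes to 0.38 and the calls in the lists to 33 higher and 2 lower. Leaving out 1 library gave 6 to 20 calls higher and 2 to 6 lower, with the fewest without HFD+Allantoin-H replicate 4 or 5 and the most without HFD replicate 3. The adjusted p-values below are from edgeR's quasi-likelihood test over all genes tested.

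Among 7 tested genes of the LKB1 complex and the other upstream kinases, Cab39l alone was called. This scaffold of the LKB1 complex went from 43.7 ± 6.48 to 72.1 ± 5.61 CPM (log2 fold change 0.72, SE 0.17, adjusted p = 0.0171) and overlaps Cdadc1 on the opposite strand. Strada, the pseudokinase that activates LKB1, had 5.40 ± 3.83 CPM in HFD and 2.05 ± 0.267 CPM in HFD+Allantoin-H (adjusted p = 0.0739). Of the 14 lysosomal and adaptor genes, Sesn3, a stress-induced AMPK activator, rose from 10.8 ± 0.809 to 24.3 ± 3.38 CPM (log2 fold change 1.18, SE 0.18, adjusted p = 0.00445). Lamtor4, part of the Ragulator scaffold on which LKB1 meets AMPK, fell from 58.5 ± 6.75 to 27.3 ± 1.18 CPM (log2 fold change -1.10, SE 0.16, adjusted p = 0.00392). Flcn, the folliculin tumour suppressor, fell from 37.2 ± 16.3 to 17.6 ± 1.98 CPM (log2 fold change -1.08, SE 0.29, adjusted p = 0.0270).

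The list of phosphatases and ligases acting on AMPK, which also holds Cidea, had 11 tested genes. Of these, Wwp1, a ubiquitin ligase, was called higher (log2 fold change 0.62, adjusted p = 0.0188), and none was called lower. Of 10 other kinases that LKB1 activates, Mark2, a polarity kinase, was called lower (-0.79, adjusted p = 0.0387), and none higher. Both calls were lost without any 1 treated library. In the adenine nucleotide list of 10 tested genes, Ak4, a mitochondrial adenylate kinase, rose from 26.3 ± 3.67 to 65.2 ± 6.67 CPM (log2 fold change 1.31, SE 0.17, adjusted p = 0.00337). Aprt, which salvages adenine to AMP, fell from 35.7 ± 4.74 to 20.7 ± 2.78 CPM (log2 fold change -0.78, SE 0.18, adjusted p = 0.0152).

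Of 10 lipid substrates, 3 were called higher and none lower, with a median of 0.12. Gpam, the first enzyme of triglyceride synthesis, had 23.6, 16.3 and 6.86 CPM in HFD and 84.1, 107 and 83.3 CPM in HFD+Allantoin-H (log2 fold change 2.56, SE 0.38, adjusted p = 0.00403). Acacb, the acetyl-CoA carboxylase that restrains fatty acid oxidation, rose from 12.4 ± 0.285 to 23.3 ± 3.70 CPM (log2 fold change 0.91, SE 0.18, adjusted p = 0.00937). Acaca, the carboxylase of fatty acid synthesis, had 21.4 ± 4.44 and 22.8 ± 2.04 CPM (log2 fold change 0.09, adjusted p = 0.760). Srebf1, the lipogenic transcription factor, rose from 49.6 ± 7.14 to 77.2 ± 5.41 CPM (log2 fold change 0.64, adjusted p = 0.0253) and overlaps Rai1 on the opposite strand.

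Of 19 substrates in glucose handling and transcription, Ppargc1a, a coactivator of mitochondrial biogenesis, rose from 4.01 ± 1.02 to 8.06 ± 1.37 CPM (log2 fold change 1.0, SE 0.29, adjusted p = 0.0343). Mlxipl, the carbohydrate-responsive factor ChREBP, had 475, 187 and 261 CPM in HFD and 88.5, 82.2 and 67.9 CPM in HFD+Allantoin-H (log2 fold change -1.95, SE 0.32, adjusted p = 0.00513). Of 14 substrates in growth, autophagy and mitochondria, 3 were called higher and none lower, with a median of 0.45. They were Atg9a, an autophagy lipid scramblase (1.82, adjusted p = 0.00841, overlapping Ankzf1 on the opposite strand), Ulk2, an autophagy kinase (0.83, adjusted p = 0.00927), and Clip1, a microtubule-end protein (0.63, adjusted p = 0.0289). Ulk1, the related kinase, had 52.1 ± 11.9 and 43.8 ± 7.04 CPM (log2 fold change -0.25, adjusted p = 0.411). The calls of Flcn, Srebf1, Ppargc1a and Clip1 were lost without any 1 treated library, and those of Cab39l and Aprt without HFD+Allantoin-H replicate 4 or 5. Once length and GC trends were removed, Aprt (log2 fold change -0.26), Wwp1 (0.40), Mark2 (-0.74), Ppargc1a (0.74) and Clip1 (0.43) were not called. Without HFD replicate 2, the library with white fat genes, Srebf1, Ppargc1a and Clip1 were not called.

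**Figure D5:**
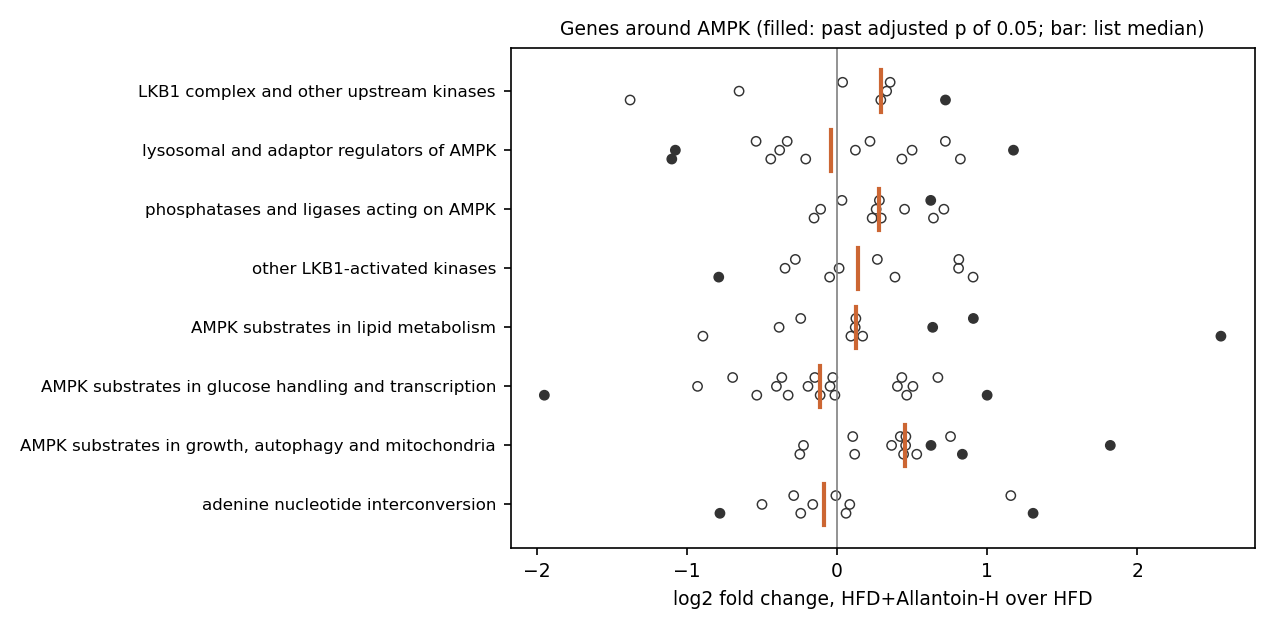
Log2 fold change of HFD+Allantoin-H over HFD for each tested gene of 8 lists around AMPK. Points are filled where the adjusted p was under 0.05, and the orange bar is the list median. The medians lie between -0.11 and 0.45, and the farthest called points are Gpam at 2.56 and Mlxipl at -1.95.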

How the data were processed

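Liver RNA of 6 libraries, 3 per group, was sequenced after an mRNA-seq library kit. The authors deposited unnormalised read counts for each gene, on GRCm38/mm10 per the labels. The aligner, the counter and the strand setting are not given in the sources used here. Of 54961 features, 429 without an Ensembl identifier (0.197 to 0.306% of counts) were left out, and 54495 of 54532 Ensembl genes matched GENCODE M21. Samples were grouped by their treatment labels. The labels do not say that each library is a separate mouse, so that p-values measure the spread between these samples, which may be technical.

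Counts were filtered with filterByExpr, scaled by TMM and tested with the quasi-likelihood test of edgeR 4.0.16 in R 4.3.3, with Benjamini-Hochberg adjustment, after a check on simulated data. Alternatives were other scalings, DESeq2 1.42.0, limma-voom (limma 3.58.1), other filters, no mitochondrial chromosome and each library left out. Removal of length and GC trends (splines, 5 df) and the promoter motifs were chosen after seeing the data. Levels between genes were set per kb of exon, and pairs were compared by exact sign-flip permutation (scipy 1.17.1). Intervals cover counting error only, and at this depth genes of few counts, such as Prkab2 and Prkag2os1, are the least precise.

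The genes, lists and tests were chosen with earlier results of these data known. Named were all 8 genes, at most 4 called genes per list by smallest p, the 3 genes most like Prkag2os1 and Prkag2 (mean of at least 1 CPM, no predicted genes, clones or pseudogenes), and genes overlapping the 8. Strada, Acaca, Ulk1 and the marker genes were named after their values were seen.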

Additional observations from a re-analysis of the deposited data

How the results depend on the processing

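Of the 8 genes, Prkaa2 was called under all 15 alternatives and Prkag2os1 under all 14 that tested it (it was not tested with at least 10 counts required in every library). For the 8 genes this is a description, since every alternative reuses the difference that chose them. Scaling by library size alone gave 3162 genes called higher and 674 lower over the whole table, 2 of the 8 genes higher (Prkaa2 and Prkag2) and 1 lower (Prkag2os1), and 33 and 2 genes of the AMPK lists. It also turned the log2 fold change of Prkab1 to 0.0104. Removing length and GC trends left 1 of the 8 genes called lower and turned Prkaa1 to -0.0041. With no filter, 18 list genes were called higher and 9 lower. Leaving out 1 library gave 460 to 1773 genes called higher and 564 to 2008 lower in the table, 1 of the 8 genes higher and 1 to 2 lower, and 6 to 20 list genes higher and 2 to 6 lower, with the fewest calls without HFD+Allantoin-H replicate 5. The cause was not tested. Prkag1 over Prkag2 was 0.20 on the log2 scale per kb of coding sequence and 0.44 per kb of the longest transcript, since the length itself differs. Lamtor4, Sesn3, Gpam, Acacb, Mlxipl, Atg9a, Ulk2 and Ak4 were called under all 15 alternatives, while Mark2 lost its call in 7, Ppargc1a in 6, Clip1 in 5, Flcn, Wwp1, Srebf1 and Aprt in 4 each and Cab39l in 2. No paired analysis was possible because the groups share no replicate numbers. Depth limits what can be said of Prkag2os1 in HFD+Allantoin-H, with 1 or 2 counts a library.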
